A study of Mus musculus with 69 samples.

Results

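The genes described here are the amino acid transporters of the solute carrier families Slc1, Slc3, Slc6, Slc7, Slc36, Slc38 and Slc43, followed in the collecting duct and in whole kidney of the mouse. They were picked out by gene symbol: 64 of the 24411 rows of the count table carried a symbol of these families, and 59 were kept after leaving out the osmolyte carriers Slc6a6 and Slc6a12 and 3 rows for an opposite-strand transcript or a pseudogene. All 59 entered the tests. Their mean was at least 10 counts per library for 46 and below that for 13.

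Cells take up, exchange and release amino acids through these carriers. In the proximal tubule, apical carriers recover filtered amino acids and basolateral carriers pass them to the blood, so whole kidney RNA is rich in their transcripts. Most Slc7 light chains reach the membrane only with a heavy chain, Slc3a1 or Slc3a2. Several members are known targets of Atf4, the transcription factor that responds to amino acid shortage and endoplasmic reticulum stress.

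RNA was sequenced from 69 mouse kidney libraries, of which 48 held labelled RNA pulled down from one cell lineage and 21 held total kidney RNA of untreated mice. All mice carried a Cre-dependent uracil phosphoribosyltransferase allele (UPRTf/+) together with Hoxb7Cre, which acts in the collecting duct, or with a Cre written Atp6b1v1Cre in the labels and called Atp6v1b1 below, whose lineage holds intercalated cells and cells that also carry principal cell markers, and all received 430 mg/kg of 4-thiouracil 4 h before dissection. Cells with the enzyme build the base into new RNA, which is then biotinylated and captured. Some RNA, though much less, is labelled in cells in which Cre has not acted, so a proximal tubule transcript in a pulldown cannot be told apart from this background.

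Control, ischemic and volume-depleted kidneys were compared. Control mice had no injury, mice with ischemic injury (iAKI) had their renal vessels clamped for 10 min, 24 h before the label was given, and mice with volume depletion (vAKI) went 72 h without water and food. The main injury comparisons used the 22 male pulldowns of 5.5 months, which were 4 control, 4 iAKI and 3 vAKI libraries of Hoxb7Cre and 4 control, 3 iAKI and 4 vAKI libraries of Atp6v1b1. The comparison of pulldowns with whole kidney used all 42 control libraries, of 3 or 5.5 months, with sex as a covariate, and the comparison of the sexes used the 16 total libraries of 5.5 months. Libraries held between 12618062 and 30305464 counts, with a median of 20868430. The replicates are samples that the labels number within a group, and p-values measure the spread between these samples. The 21 total libraries match the 21 control pulldowns in number for each Cre, sex and age. The study's supplement counts mice for this comparison, in a number equal to the control pulldowns of both lines, so total and pulldown libraries may come from the same animals. The labels do not pair them, and the tests between them treat all 42 as independent. Levels are given as CPM, which are read counts scaled to the size and composition of the library, and a gene was called changed at an adjusted p (edgeR, Benjamini-Hochberg over 21175 genes) under 0.05 and a change of at least 1 on the log2 scale.

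The labels were set against markers of the lineages. Aqp2, the principal cell water channel, was 1.46 ± 0.144 (SE) higher on the log2 scale in the Hoxb7 pulldown than in total RNA, and 5 of 8 principal cell markers were called higher there, while 4 of 8 intercalated cell markers were called higher in the Atp6v1b1 pulldown and 3 of 8 principal cell markers lower. The summed CPM of 10 proximal tubule markers was 11380 to 19840 in total RNA, 1738 to 4410 in the Hoxb7 pulldowns and 1461 to 4435 in the Atp6v1b1 pulldowns, so transcripts of that segment were reduced but still present. In these bulk libraries, fewer cells of a type and less RNA per cell cannot be told apart. The library numbers in the labels fall into series, and all injured male Hoxb7 libraries belong to series A, whereas their controls were split evenly between series A and B. What the series stand for was not stated.

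Promoters of the members were examined for the letters of the amino acid response element (TGATGNAA or its reverse complement TTNCATCA), to which Atf4 binds, and of the FoxO motif (TGTTTAC or GTAAACA), from 250 bases before to 50 after the annotated start. RefSeq promoter sequences (GRCm38.p6) were matched for 42 of the 59 members. The element was found in 3 of these 42 members, a share of 7.14%, against 4.51% of all 27025 genes. The FoxO letters were found in Slc7a11 and Slc36a3, a share of 4.76%, against 4.05%. The 4 promoters that follow are shown because they hold the element in members known as Atf4 targets, or belong to members that rose after volume depletion and hold no match at the start examined. Each is printed 5′ to 3′ on the strand of the gene, with the matched letters in capitals. Slc7a11 (chr3:50443564-50443863, minus strand), the cystine and glutamate exchanger, holds the element at -66 and -47 and the FoxO letters at -232. Slc1a4 (chr11:20332664-20332963, minus strand), a neutral amino acid exchanger, holds the element at -4. Slc3a2 (chr19:8713848-8714147, minus strand), the heavy chain of most light chains, and Slc43a1 (chr2:84840073-84840372, plus strand), a carrier of large neutral amino acids, hold neither motif in this window. The windows of Slc3a2 and Slc43a1 are at a start inside the gene span given below, and other starts of these genes were not examined, whereas those of Slc7a11 and Slc1a4 are at the outermost annotated start. Slc7a5, Slc38a3 and Slc43a3, which also rose, are not among the 42 matched members.
Slc7a11: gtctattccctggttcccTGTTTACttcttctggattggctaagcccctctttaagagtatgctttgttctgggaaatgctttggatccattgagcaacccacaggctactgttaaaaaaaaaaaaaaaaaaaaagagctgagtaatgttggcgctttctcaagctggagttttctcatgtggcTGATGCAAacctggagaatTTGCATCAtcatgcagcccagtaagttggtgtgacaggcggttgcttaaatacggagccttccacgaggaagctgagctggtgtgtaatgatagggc
Slc1a4: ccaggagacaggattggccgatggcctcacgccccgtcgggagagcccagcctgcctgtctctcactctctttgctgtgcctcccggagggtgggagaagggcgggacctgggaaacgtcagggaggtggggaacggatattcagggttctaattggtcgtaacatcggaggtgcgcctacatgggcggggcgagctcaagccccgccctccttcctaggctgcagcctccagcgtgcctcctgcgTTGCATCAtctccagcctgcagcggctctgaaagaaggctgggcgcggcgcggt
Slc3a2: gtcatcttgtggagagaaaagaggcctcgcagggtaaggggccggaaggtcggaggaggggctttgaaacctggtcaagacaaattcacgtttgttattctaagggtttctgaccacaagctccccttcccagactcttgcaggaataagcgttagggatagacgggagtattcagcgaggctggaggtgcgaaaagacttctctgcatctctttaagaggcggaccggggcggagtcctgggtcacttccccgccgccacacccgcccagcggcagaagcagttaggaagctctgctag
Slc43a1: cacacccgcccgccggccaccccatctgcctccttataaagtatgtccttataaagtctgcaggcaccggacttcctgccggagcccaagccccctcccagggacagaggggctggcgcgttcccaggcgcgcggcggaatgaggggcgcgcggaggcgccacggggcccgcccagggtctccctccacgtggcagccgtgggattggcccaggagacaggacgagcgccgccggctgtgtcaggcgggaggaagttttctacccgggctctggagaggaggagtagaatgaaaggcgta
The third member with the element was Slc7a7, the light chain that exports cationic amino acids, with matches at -141 and -1 of one start. The second of these is also the match at -243 of another start, whose window overlaps the first. A match of letters describes the window and shows no binding, and the absence of a match shows nothing about the factor.

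Which carriers make up the amino acid transport RNA of the kidney was read from control levels divided by the length of the exons (CPM per kb). In total RNA, the highest mean level per length over both sexes was that of Slc6a18, the apical glycine and alanine carrier, at 319 ± 74.6 CPM per kb (SD, n = 21). Slc7a13, a light chain that pairs with Slc3a1, followed at 309 ± 307, Slc3a1 at 273 ± 45.5, Slc3a2 at 107.9 ± 18.9 and Slc7a12 at 100.7 ± 105.5. The order turned with sex. In the 11 males Slc7a13 was first at 589 ± 83.4 CPM per kb, before Slc3a1 at 296 ± 36.6 and Slc6a18 at 254 ± 26.1. In the 10 females Slc6a18 was first at 391 ± 27.2, before Slc3a1 at 248 ± 42.5 and Slc7a12 at 205 ± 41.5.

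In the control pulldowns Slc6a18 had the highest mean in each sex. Over both sexes it was at 248 ± 135 CPM per kb in the Hoxb7 pulldown (n = 10) and 219 ± 54 in the Atp6v1b1 pulldown (n = 11). Slc38a2, the sodium-coupled carrier of small neutral amino acids, was second in both, at 187 and 150 CPM per kb against 54.8 in total RNA. Slc3a2 followed at 83.6 ± 23.8 and 80.3 ± 15.5. In the 4 male Hoxb7 controls the spreads of Slc6a18 (148 ± 69.5) and Slc38a2 (134 ± 39.4) overlapped. Together the 59 members took 0.525 to 0.674% of the counts in total RNA, 0.429 to 0.753% in Hoxb7 control pulldowns and 0.531 to 0.653% in Atp6v1b1 control pulldowns, so the share as a whole overlapped between the pools.

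Against total RNA, 24 of the 59 members (40.7%) were called in the Hoxb7 pulldown, 9 higher and 15 lower, where 32.5% of all genes tested were called (14.6% higher and 17.9% lower). In the Atp6v1b1 pulldown 24 members were also called, 9 higher and 15 lower, where 27.7% of all genes were called (11.3% higher and 16.4% lower). Both pulldowns were set against the same 21 total libraries. Pulldowns hold RNA made during the label, whereas total RNA also holds older transcripts. The paper cautions that the method may favour transcripts rich in uracil and may reflect faster turnover of RNA. The part of either in the differences from total RNA was not tested. All 9 apical proximal tubule carriers were lower in both pulldowns by adjusted p, a threshold that 66.6% of all genes passed in the Hoxb7 and 63.8% in the Atp6v1b1 comparison, and 4 of them in the Hoxb7 and 6 in the Atp6v1b1 pulldown also passed the fold threshold. Summed over these 9 carriers, the level was 2879 to 4562 CPM in total RNA, 1045 to 2439 CPM in the Hoxb7 and 1107 to 1891 CPM in the Atp6v1b1 pulldowns, so every pulldown library lay below every total library. The proximal tubule markers, which share that segment, were called lower for 9 of 10 genes in each pulldown.

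Among the carriers that fell below whole kidney, Slc3a1, the heavy chain of the apical cystine transporter, was at 620.5 ± 103.4 CPM in total RNA and 106.5 ± 15.8 in the Hoxb7 pulldown, a log2 difference of -2.51 ± 0.101 (SE, adjusted p = 4.95e-26). Slc6a20b, an imino acid carrier, was at 223.2 ± 49.8 against 26.56 ± 13.3 CPM (-3.03 ± 0.158). Slc7a7, the basolateral partner of Slc3a2 in the export of cationic amino acids, was at 141.9 ± 37.5 against 23.79 ± 8.27 CPM (-2.58 ± 0.210). No library of the pulldown overlapped with total RNA for these 3 genes, and the same held in the Atp6v1b1 pulldown, where the differences were -2.38, -3.02 and -2.76. The lowest folds in both pulldowns were those of Slc7a13 (-3.48 and -3.56) and, in the Hoxb7 pulldown, Slc7a12 (-3.30 ± 0.326), which was at -2.90 in the Atp6v1b1 pulldown. Slc7a10, a light chain that exchanges small neutral amino acids, was low in every pool (1.248 ± 0.725 CPM in total RNA) and at -2.26 ± 0.340 in the Hoxb7 pulldown.

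Among the members called higher in the labelled RNA, Slc38a2 was at 1653 ± 600 CPM in the Hoxb7 pulldown and 484.2 ± 113 in total RNA, a log2 difference of 1.70 ± 0.117. Slc7a1, the uptake carrier of arginine and lysine, was at 124.1 ± 13.8 against 42.28 ± 8.72 CPM (1.55 ± 0.088). Slc7a5, the light chain that takes up large neutral amino acids such as leucine with Slc3a2, was at 42.2 ± 10.8 against 16.34 ± 4.51 CPM (1.34 ± 0.127). Slc7a6, another partner of Slc3a2, was at 41.55 ± 4.21 against 16.01 ± 3.22 CPM (1.36 ± 0.066). Slc7a11, the cystine and glutamate exchanger, was at 8.668 ± 2.19 against 1.908 ± 0.881 CPM (2.17 ± 0.210), the highest fold in the Hoxb7 pulldown. In the Atp6v1b1 pulldown the highest was Slc38a1, a relative of Slc38a2, at 24.37 ± 4.58 against 8.128 ± 1.87 CPM (1.63 ± 0.098), before Slc7a5 (1.55), Slc7a11 (1.54), Slc38a2 (1.53), Slc7a1 (1.48) and Slc7a6 (1.14). The rule of the 6 most extreme folds also met Slc38a8, Slc38a5 and Slc6a11, whose mean was below 0.1 CPM in each pool and for which no fold is given.

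**Figure D1:**
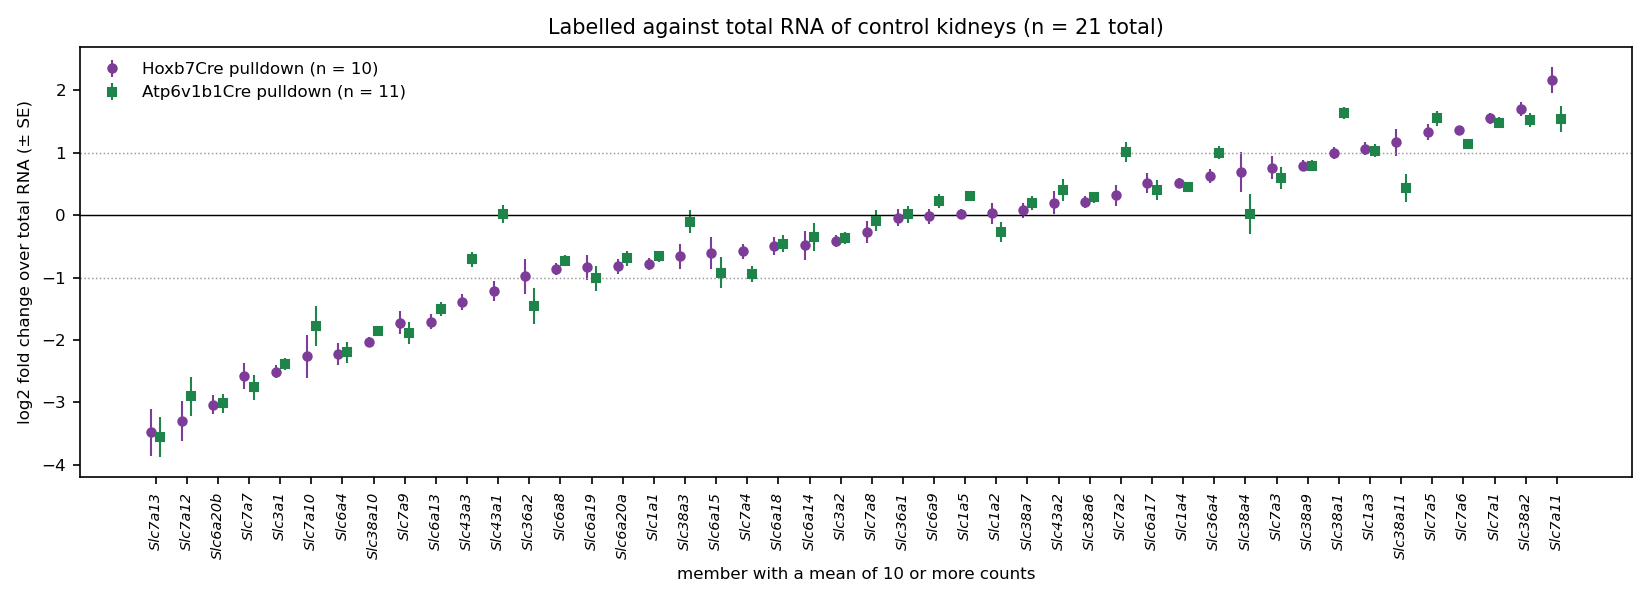
Log2 fold change of each member in control pulldowns over total kidney RNA (y axis, ± SE), ordered by the Hoxb7 value, with Hoxb7Cre as circles (n = 10) and Atp6v1b1 as squares (n = 11) against 21 total libraries; members with a mean of at least 10 counts are shown. Apical carriers such as Slc7a13, Slc6a20b and Slc3a1 lie at the left below -2, and Slc7a1, Slc38a2 and Slc7a11 at the right above 1.

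Between the lineages, 1 member was called, where 4.11% of all genes were called. Slc43a1 was at 7.114 ± 2.20 CPM in the Atp6v1b1 and 3.264 ± 0.978 in the Hoxb7 pulldown, a log2 difference of 1.23 ± 0.177, although the 2 groups of libraries overlapped. Slc43a3, which carries purine nucleobases, was 0.69 ± 0.138 higher, Slc7a2, a carrier of cationic amino acids, 0.69 ± 0.202 higher and Slc38a1 0.64 ± 0.119 higher in the Atp6v1b1 pulldown, below the fold threshold. Of these 59 members, none was lower in the Atp6v1b1 pulldown by adjusted p. Of the markers, 5 of 8 for principal cells were called lower in the Atp6v1b1 pulldown, led by Aqp2 (-2.57), and 3 of 5 for macrophages higher, namely C1qa (2.61), C1qb (2.54) and Adgre1 (1.63). Lcn2 (-1.74) of 6 injured tubule markers was called lower. None of the 8 intercalated cell markers was called, and 5 were higher by adjusted p. The part of these markers in the differences of the carriers was not tested. With the males alone 5 members were called, where 4.9% of all genes were called. There all 4 Hoxb7 controls were 5.5 months old and 3 of 7 Atp6v1b1 controls were 3 months old. Lineage and age can therefore not be fully told apart in that count. In the fit of both sexes age was not a covariate, and the 3-month pulldowns were 2 female Hoxb7 and 3 male Atp6v1b1 libraries.

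Among males, volume depletion was the stimulus with the most called members in the Hoxb7 lineage. In male Hoxb7 pulldowns 12 of 59 members (20.3%) were called, 6 higher and 6 lower, where 16.4% of all genes were called (9.61% higher and 6.81% lower). By adjusted p alone 21 members (35.6%) passed, where 35.5% of all genes did, and 23 members did not overlap between the groups, where 39.5% of all genes did not. The median log2 change was -0.03 over the members and 0 over all genes. The share of members called was therefore near the background, and the values below describe which carriers they were.

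The heavy chain Slc3a2 and the light chain Slc7a5 rose together, whereas Slc7a6, another partner of Slc3a2, fell by adjusted p only. Slc3a2 (chr19:8706882-8723369) was at 208, 241, 289 and 292 CPM in the 4 controls, at 227, 237, 242 and 259 CPM after ischemia and at 600, 683 and 849 CPM after volume depletion. All 3 volume-depleted libraries lay above the 8 others. The change from control was 1.46 ± 0.176 on the log2 scale (SE, adjusted p = 1.92e-06). Slc7a5 (chr8:121881150-121907694) was at 37, 17.8, 52.1 and 55.6 CPM in the controls and at 107.8, 115 and 197 CPM after volume depletion. The groups did not overlap, and the change was 1.79 ± 0.289 (adjusted p = 5.18e-05). The annotation (GENCODE M21, GRCm38) places another transcript, Gm20388, on the opposite strand of Slc7a5. The authors ran HTSeq at its default settings, which assign reads by strand and leave out ambiguous ones. Whether the libraries mark strand is not given in the sources used here, so reads of the overlap may be counted to either gene.

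Slc38a3 (chr9:107650634-107669530), the glutamine carrier of the basolateral membrane, was at 70.4, 62.8, 60.4 and 74.8 CPM in the controls. After ischemia it was at 86.8, 34.6, 105.7 and 58.5 CPM, on both sides of the controls. After volume depletion it was at 331, 354 and 388 CPM, above every control and ischemic library, a change of 2.41 ± 0.327 (adjusted p = 7.06e-06).

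Both carriers of the Slc43 family with a called change rose as well. Slc43a1 (chr2:84838850-84863594) was at 3.80, 2.15, 3.12 and 2.17 CPM in the controls and at 9.13, 8.76 and 10.7 CPM after volume depletion (1.76 ± 0.275, adjusted p = 3.64e-05). Slc43a3 (chr2:84936579-84958509) was at 32.5, 31.4, 24.9 and 16.3 CPM and at 81.6, 99.1 and 117 CPM (1.92 ± 0.202, adjusted p = 4.73e-07). Neither gene overlapped between these groups, and the third of the family, Slc43a2, was not called. Slc6a5, a glycine carrier of neurons, was the sixth called higher, but its level was low, at 3, 1, 2 and 3 counts in the controls and 11, 20 and 17 counts after volume depletion.

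Below the fold threshold, Slc7a1 rose from 145, 131, 155 and 150 CPM to 240, 220 and 322 CPM without overlap (0.84, adjusted p = 7.46e-05). Slc1a5, a glutamine and neutral amino acid exchanger, changed by 0.49 and Slc38a1 by 0.65, both by adjusted p only. Slc7a11 was at 13.5, 8.66, 9.47 and 12.1 CPM in the controls and at 10.5, 12.9 and 30.1 CPM after volume depletion. These groups overlapped, and the log2 difference of 0.71, with a 95% interval from -0.07 to 1.48, did not pass (adjusted p = 0.151). Slc1a4, the other printed promoter with the element, was at 68.6, 65.5, 71.7 and 92.7 CPM against 109.2, 76.9 and 136 CPM (0.52, adjusted p = 0.072), also with overlap.

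**Figure D2:**
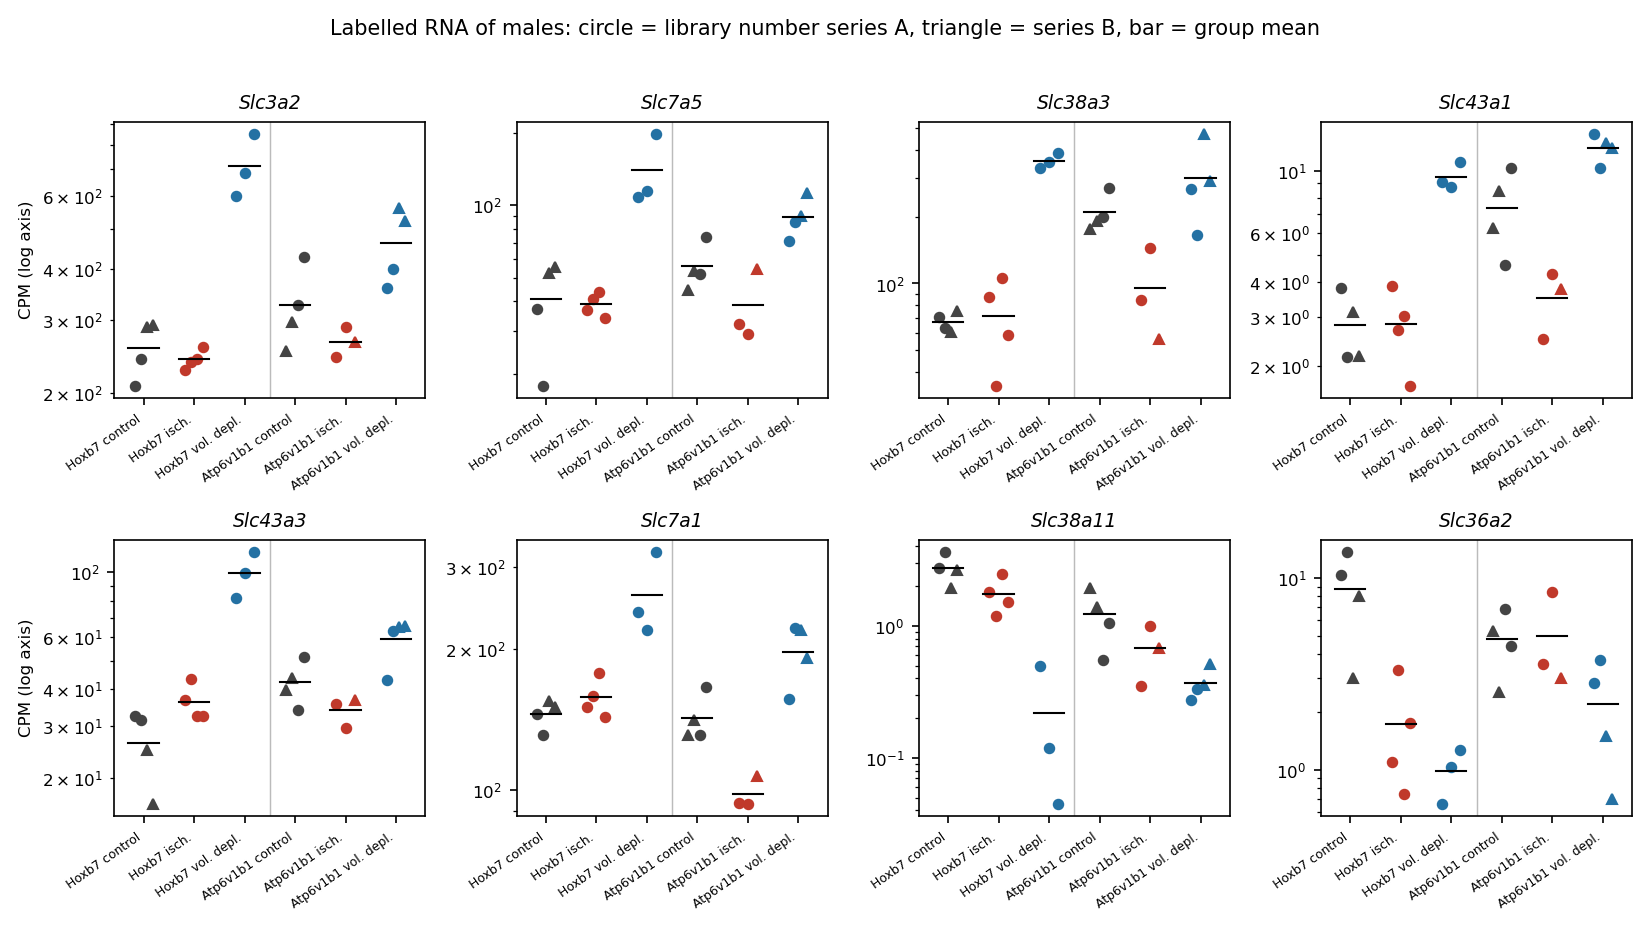
Level of 8 members in each male pulldown (y axis, CPM on a log scale) by driver and state; circles are libraries of number series A, triangles of series B, and bars are group means. The 3 volume-depleted Hoxb7 libraries lie above all Hoxb7 controls for Slc3a2, Slc7a5, Slc38a3, Slc43a1, Slc43a3 and Slc7a1 and below them for Slc38a11 and Slc36a2.

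The 6 members called lower in the Hoxb7 pulldowns after volume depletion came from several families. Slc38a11 (chr2:65316430-65364034), a little studied member of the glutamine carrier family, was at 2.74, 3.62, 1.94 and 2.64 CPM in the controls and at 0.498, 0.118 and 0.045 CPM afterwards, which are 9, 3 and 1 counts. The change was -3.70 ± 0.547 (adjusted p = 1.88e-05), with no overlap. Slc36a2 (chr11:55158470-55185077), a proton-coupled carrier of glycine and proline that is also a surface marker of brown adipocytes, was at 10.4, 13.6, 3.01 and 8.02 CPM in the controls and at 0.664, 1.03 and 1.26 CPM after volume depletion. The change was -3.13 ± 0.595 (adjusted p = 2.73e-04), again with no overlap.

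In the Slc6 family, the apical carrier Slc6a18 (chr13:73661752-73678023) was at 628, 498, 574 and 1260 CPM in the controls and at 380, 295 and 361 CPM after volume depletion (-1.10 ± 0.351, adjusted p = 0.0170). The apical imino acid carrier Slc6a20b (chr9:123590800-123632565) was at 28.5, 35.6, 43.6 and 65.2 CPM against 16.1, 18.5 and 17.3 CPM (-1.32 ± 0.330, adjusted p = 0.00317). Slc6a15, a carrier of branched-chain amino acids and proline, was at 43.6, 46.7, 23.1 and 44.1 CPM against 13.9, 8.36 and 13.6 CPM (-1.72 ± 0.510, adjusted p = 0.0108). The volume-depleted libraries lay below every control for all 3. Without control replicate 5, the library at 1260 CPM, Slc6a18 was at -0.71 (adjusted p = 0.0976), and its call was also lost without volume-depleted replicate 6 (adjusted p = 0.0727). Without that replicate Slc6a15 was at -1.52 (adjusted p = 0.0589). Summed over the 9 apical carriers, the level was 1222 to 2188 CPM in the controls and 837.3 to 966.1 CPM after volume depletion. Slc7a3, a carrier of cationic amino acids, was at 3.43, 4.93, 2.21 and 2.54 CPM against 1.11, 1.14 and 2.03 CPM (-1.20 ± 0.357, adjusted p = 0.0113), and its call was lost without volume-depleted replicate 4 or 6 (-1.05 in each) or control replicate 3 (-0.93). Another 6 members fell by adjusted p only, by between 0.51 (Slc38a7) and 0.85 (Slc7a4) on the log2 scale. They included Slc7a6 (-0.80) and the glutamate carrier Slc1a3 (-0.70), and the lysosomal members Slc36a1 (-0.72) and Slc38a9 (-0.68), which act with the amino acid sensing complex mTORC1.

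Marker genes of the lineage itself and of other cells moved with these changes in the Hoxb7 pulldowns. Of 9 adipocyte markers, 5 were called lower after volume depletion, among them Ucp1 (-2.73) and Elovl3 (-3.98) of brown fat, and their summed CPM was 132.9 to 292.6 in the controls and 123.3 to 173.3 after volume depletion. Of 8 principal cell markers 6, of 8 intercalated cell markers 5, of 4 thick ascending limb markers 3 (Umod, Slc12a1 and Ptger3) and of 3 distal convoluted tubule markers 1 (Slc12a3) were called lower. Of 5 endothelial markers, Cdh5 (1.85) and Egfl7 (2.13) were called higher. Of 5 macrophage markers, Cd68 (2.06) and C1qb (1.11) were called higher and Adgre1 (-1.19) lower. Of 5 podocyte markers, Synpo (1.74) was called higher. None of the 10 proximal tubule markers was called, and their sums were 2163 to 3802 CPM in the controls and 2955 to 3214 CPM after volume depletion. The summed adrenal markers were 101.6 CPM in 1 control and between 23.83 and 30.31 CPM in the other male Hoxb7 libraries, and 2 of 5 were called lower. The part of these markers in the change of Slc36a2 and of the other carriers was not tested.

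Members known as Atf4 targets and the other genes of the amino acid response were counted side by side. Of 9 such members, 2 were called higher (Slc3a2 and Slc7a5) and 1 lower (Slc7a3), and 4 rose and 1 fell by adjusted p, with a median log2 change of 0.52. Over all genes 9.61% were called higher and 6.81% lower, and 35.5% passed the adjusted p. Of 16 amino acid response genes that are no carriers, 9 were called higher and none lower, and 11 rose by adjusted p, with a median of 1.17. Atf4 itself was 1.59 higher (adjusted p = 5.09e-05), Asns, the asparagine synthetase, 1.30 higher, Chac1, which degrades glutathione, 4.19 higher, and Trib3, an inhibitor of this response, 4.32 higher. Of 10 tested partners and other amino acid or peptide carriers, only Slc25a15, the mitochondrial ornithine carrier, was called (-1.54). Neither list nor direction is independent of earlier results on these samples.

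Within series A the comparison kept its size for the carriers named first. With the 2 controls of that series, the change was 1.66 for Slc3a2, 2.35 for Slc7a5, 2.42 for Slc38a3, 1.67 for Slc43a1, 1.63 for Slc43a3, -3.93 for Slc38a11 and -3.58 for Slc36a2, and 12 members were called, where 18.9% of all genes were called in that fit. Slc6a18 and Slc6a20b were at -0.71 and -0.89 there, below the fold threshold.

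The response of females to volume depletion was also compared with that of males. In female Hoxb7 pulldowns of 5.5 months, Slc3a2 was at 275, 540, 409 and 418 CPM in 4 controls and at 352, 457, 326 and 677 CPM after volume depletion, and Slc38a3 was at 115, 354, 225 and 199 against 216, 227, 375 and 213 CPM. Control and volume-depleted females overlapped for both genes, and their control levels were mostly above those of the males. The only control of number series A, to which all 4 treated females belong, was the one at 275 and 115 CPM, and every treated female lay above it for both genes. No member was called by edgeR in females alone, where 0.0992% of all genes were called, and 5 passed an unadjusted p under 0.05, as 7.91% of all genes did. Of the members called in males, Slc6a20b (0.42) and Slc7a3 (0.24) went the other way in females. The response of females minus that of males, a test added after the data were seen, was called for 8 members (13.6%), where 10.8% of all genes were called, so that the share of members was near the background. It was -1.31 for Slc3a2 (adjusted p = 0.0056), -2.20 for Slc38a3 (adjusted p = 0.00442), -1.26 for Slc43a3, 2.89 for Slc38a11, 2.63 for Slc36a2, 1.73 for Slc6a20b, 1.44 for Slc7a3 and 1.25 for Slc36a1. For Slc7a5 and Slc43a1 it was not called, and the changes in females alone were 0.55 ± 0.397 and 0.69 ± 0.479, neither of which passed. Female controls came from 3 number series and all 4 volume-depleted females from series A, so series and state cannot be fully told apart there.

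In the Atp6v1b1 lineage volume depletion called 5 of 59 members (8.47%), 2 higher and 3 lower, where 5.15% of all genes were called (3.45% higher and 1.7% lower). Slc38a11 was at 1.94, 1.38, 0.549 and 1.05 CPM in the controls and at 0.273, 0.331, 0.354 and 0.512 CPM after volume depletion (-1.77 ± 0.468, adjusted p = 0.0142), with no overlap. Slc6a20b was at 43.1, 37, 59.8 and 39.8 CPM against 21.3, 22.7, 16.6 and 12 CPM (-1.30 ± 0.299, adjusted p = 0.00578). Slc7a13 (chr4:19818725-19842218) was at 139, 114, 83 and 124 CPM against 41.5, 30.4, 53.3 and 47.1 CPM (-1.42 ± 0.376, adjusted p = 0.0143). All 4 treated libraries lay below every control for these genes. Slc6a14, a carrier of neutral and cationic amino acids, was higher but low, at 0.324, 0.372, 0.320 and 0.421 CPM against 1.05, 1.802, 0.992 and 0.641 CPM (1.66 ± 0.445, adjusted p = 0.0152). Slc6a5 was at 0 to 3 counts in the controls and at 38, 12, 6 and 6 counts after volume depletion, so its called rise rests on few counts. In females alone the direction turned for Slc6a14 (-1.26, adjusted p = 0.0891) and for Slc7a13 (0.95, adjusted p = 0.48), neither of which passed. The call of Slc38a11 was lost without control replicate 10 (-1.47, adjusted p = 0.0598) and that of Slc6a14 without volume-depleted replicate 2 (1.32, adjusted p = 0.064).

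Of the markers in the same comparison, 4 of 8 for intercalated cells were called lower, namely Foxi1 (-1.01), Atp6v0d2 (-1.05), Aqp6 (-1.31) and Insrr (-2.01). Also called lower were 2 of 3 distal convoluted tubule markers, Slc12a3 (-1.73) and Pvalb (-1.68), Ptger3 (-1.30) of 4 thick ascending limb markers, Slc22a6 (-1.55) of 10 proximal tubule markers and 3 of 9 adipocyte markers, Plin1 (-1.72), Ucp1 (-2.48) and Elovl3 (-2.65). None of the marker genes was called higher. Their part in the changes of the carriers was not tested.

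Slc3a2 rose by adjusted p only, from 253, 297, 327 and 427 CPM to 359, 399, 563 and 523 CPM (0.50, adjusted p = 0.0433), and these groups overlapped. Slc7a1 also rose by 0.47 (adjusted p = 0.0195), and Slc38a9 fell by 0.43. Of the 16 amino acid response genes 4 were called higher, namely Atf3 (2.07), Ddit3 (1.39), Chac1 (1.28) and Trib3 (1.48). Atf4 itself rose by adjusted p only (0.75, adjusted p = 0.0386). The others did not pass, among them Asns (-0.09), Sesn2 (0.38) and Mthfd2 (-0.02). Among the treated libraries some apical carriers stood apart by number series. Slc6a19 (chr13:73679745-73704865), the main apical carrier of neutral amino acids, was at 438 and 286 CPM in the 2 libraries of series A and at 71.1 and 64.6 CPM in those of series B. Slc6a18 was likewise at 938.8 and 828.3 CPM against 334 and 295.7 CPM, whereas Slc7a13 was lower in the series A libraries, as the values above show. With series A alone 1 member, Slc6a5, was called, where 3.12% of all genes were called, and Slc38a11, Slc6a20b and Slc7a13 were at -1.40, -1.21 and -1.55 without passing.

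After ischemia 7 of 59 members (11.9%) were called in the Atp6v1b1 pulldowns, all lower, where 2.82% of all genes were called (1.14% higher and 1.68% lower). The median log2 change was -0.29 over the members and 0 over all genes. Of the 9 apical carriers, 4 were among them. Slc3a1 (chr17:85028376-85064236) was at 149, 144, 166 and 165 CPM in the controls and at 47.7, 89.5 and 65.1 CPM after ischemia (-1.21 ± 0.252, adjusted p = 0.00554). Slc6a19 was at 98.3, 116, 216 and 212 CPM against 68.1, 36.7 and 46.9 CPM (-1.67 ± 0.477, adjusted p = 0.0318). Slc7a13 was at 19.9, 75.7 and 26.2 CPM after ischemia (-1.51 ± 0.416, adjusted p = 0.0262), and Slc6a20b at 15, 32.03 and 17.8 CPM (-1.06 ± 0.326, adjusted p = 0.0451). Every ischemic library lay below every control for these 4 genes. The most abundant apical carrier, Slc6a18, was at 1068, 876.1, 1055 and 830.1 CPM in the controls and at 561.8, 759.3 and 1193 CPM after ischemia, with overlap, and was not called. Slc3a1, Slc6a19 and Slc6a20b overlap a transcript of the opposite strand, and Slc6a20b has the close relative Slc6a20a, so part of their reads may be counted to the other gene or left out.

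The other 3 were carriers outside the apical list. Slc38a3 was at 176, 192, 199 and 270 CPM in the controls and at 84.2, 145 and 56.1 CPM after ischemia (-1.14 ± 0.332, adjusted p = 0.0344). Slc6a13, which carries GABA, was at 64.8, 69.6, 71.9 and 70.04 CPM against 25.8, 37.3 and 32.4 CPM (-1.12 ± 0.284, adjusted p = 0.0176). Slc43a1 was at 6.24, 8.45, 4.58 and 10.2 CPM against 2.49, 4.28 and 3.77 CPM (-1.07 ± 0.281, adjusted p = 0.0203). None of the 3 overlapped with its controls. Slc38a2 (-0.80) and Slc7a1 (-0.54) fell and Slc1a3 (0.58) rose by adjusted p only.

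Some proximal tubule markers fell in the same libraries. Of 10 such markers 3 were called lower, namely the phosphate carrier Slc34a1 (-2.43, adjusted p = 0.00287), the lactate carrier Slc5a12 (-2.37) and Miox (-1.76), which breaks down inositol. The sums over all 10 were 2221 to 4371 CPM in the controls and 1017 to 1481 CPM after ischemia, and their median change was -0.92. The injured tubule markers rose in both lineages, with 5 of 6 called higher in each. Umod (1.27) of the thick ascending limb and the principal cell marker Hsd11b2 (1.01) were also called higher and the endothelial marker Kdr (-1.19) lower. Of the 16 amino acid response genes, Nupr1 (1.20) was called higher and Sesn2 (-1.24) lower. Whether the fall of the carriers goes with the amount of proximal background in the pulldown was not tested. Without ischemic replicate 1 no member was called by edgeR, where 1.1% of all genes were called, and 13 passed an unadjusted p under 0.05, as 17.3% of all genes did. Without control replicate 9 the count was 2 (2.15% of all genes), without ischemic replicate 5 it was 3 (3.05%), and without control replicate 6 or 11 it was 4 (2.63% and 2.19%). With both sexes 4 members were called, where 3.9% of all genes were called. In females alone edgeR called 0, where 1.15% of all genes were called, and 10 passed an unadjusted p under 0.05, as 20.1% of all genes did.

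**Figure D3:**
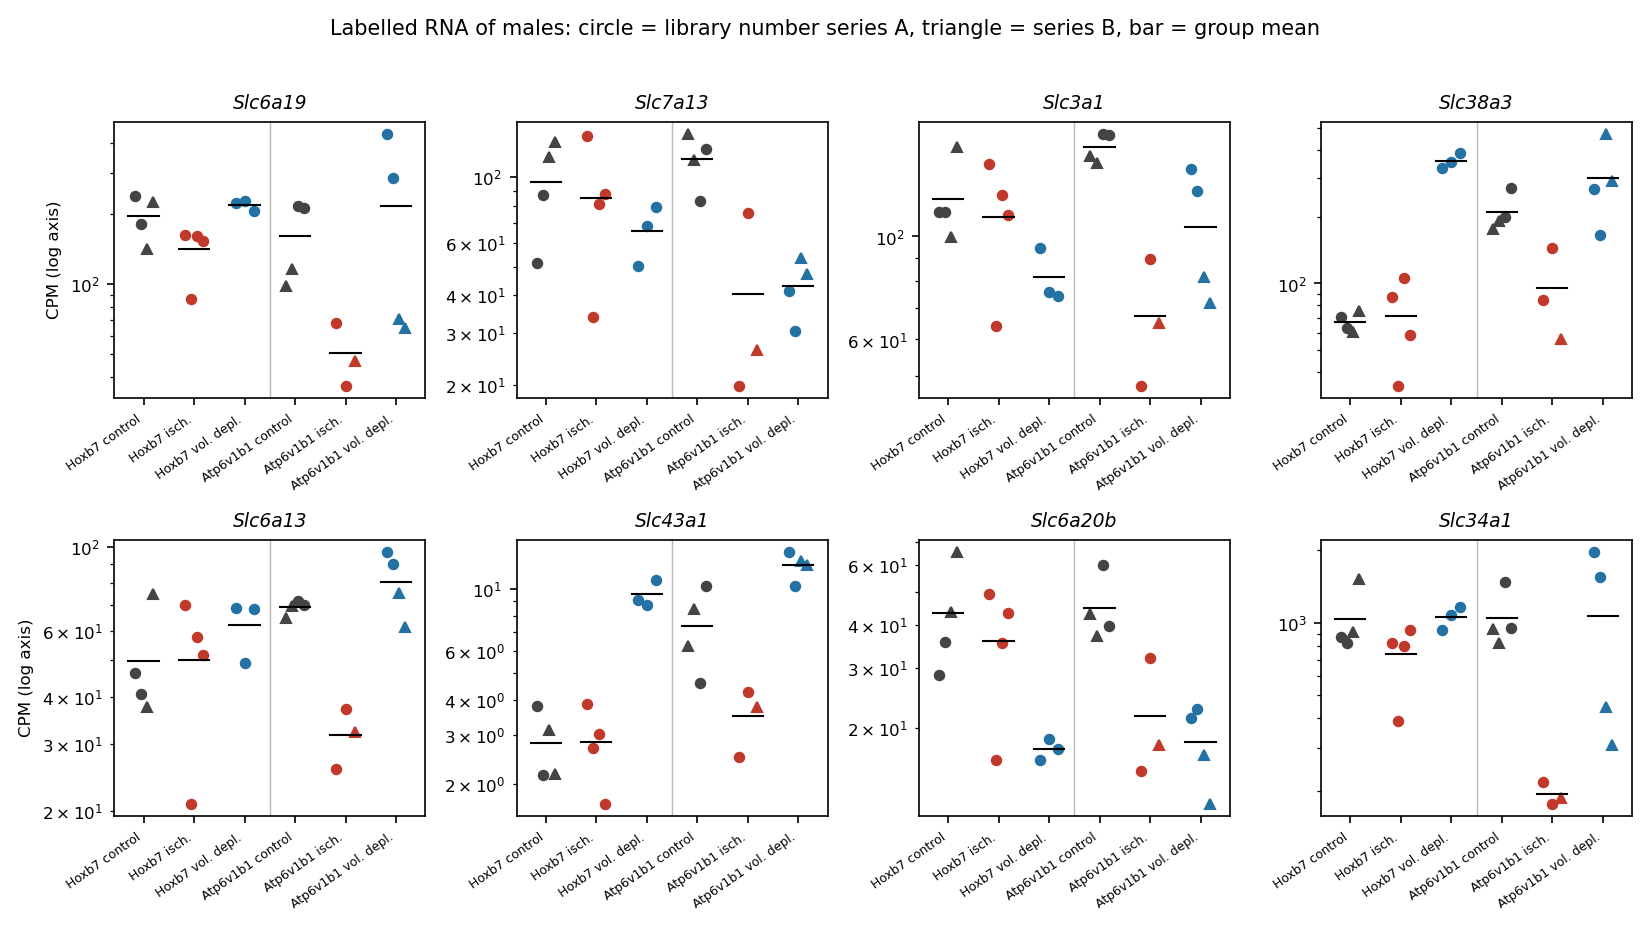
Level of the 7 members called after ischemia in the Atp6v1b1 lineage, and of the proximal marker Slc34a1, in each male pulldown (y axis, CPM on a log scale); circles are library number series A, triangles series B, bars group means. The 3 ischemic Atp6v1b1 libraries lie below all 4 controls in each panel, whereas the ischemic Hoxb7 libraries overlap with their controls.

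In the Hoxb7 lineage ischemia called 1 of 59 members (1.69%), where 2.3% of all genes were called. Slc36a2 was at 1.09, 3.30, 0.743 and 1.74 CPM after ischemia, against the controls given above, a change of -2.33 ± 0.504 (adjusted p = 0.00851). In females alone it was 0.80 (adjusted p = 0.274). Ischemic replicate 5 lay above the lowest control. Of 9 adipocyte markers, 6 were called lower in the same comparison, among them Ucp1 (-4.28) and Cidea (-2.96), and the sums were 132.9 to 292.6 CPM in the controls and 55.65 to 110.7 CPM after ischemia. The markers of the lineage itself also fell in part, with 4 of 8 for principal cells called lower, namely Aqp2 (-1.69), Aqp3 (-1.84), Avpr2 (-1.33) and Hsd11b2 (-1.004), and 2 of 8 for intercalated cells, Slc4a1 (-2.15) and Aqp6 (-1.26). None of the 10 proximal tubule markers was called. Of 5 adrenal markers Cyp11b1 was called lower, and the adrenal sum stood out in the 1 control named above. The part of these markers in the change of Slc36a2 was not tested. Slc1a5 fell from between 92.3 and 118 CPM in the 4 controls to 54.3, 60.8, 51.5 and 52.0 CPM with no overlap (-0.97 ± 0.172, adjusted p = 0.00242), just below the fold threshold. Slc36a4, a proline and tryptophan carrier, rose by 0.86 ± 0.257 (adjusted p = 0.0474). None of the 16 amino acid response genes was called. The response of females minus that of males was called for 4 members, where 6.98% of all genes were called, at 3.12 for Slc36a2, 1.77 for Slc6a20b, -1.21 for Slc36a4 and -1.52 for Slc38a2. In the Atp6v1b1 lineage this test called 0% of all genes for either injury.

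**Figure D4:**
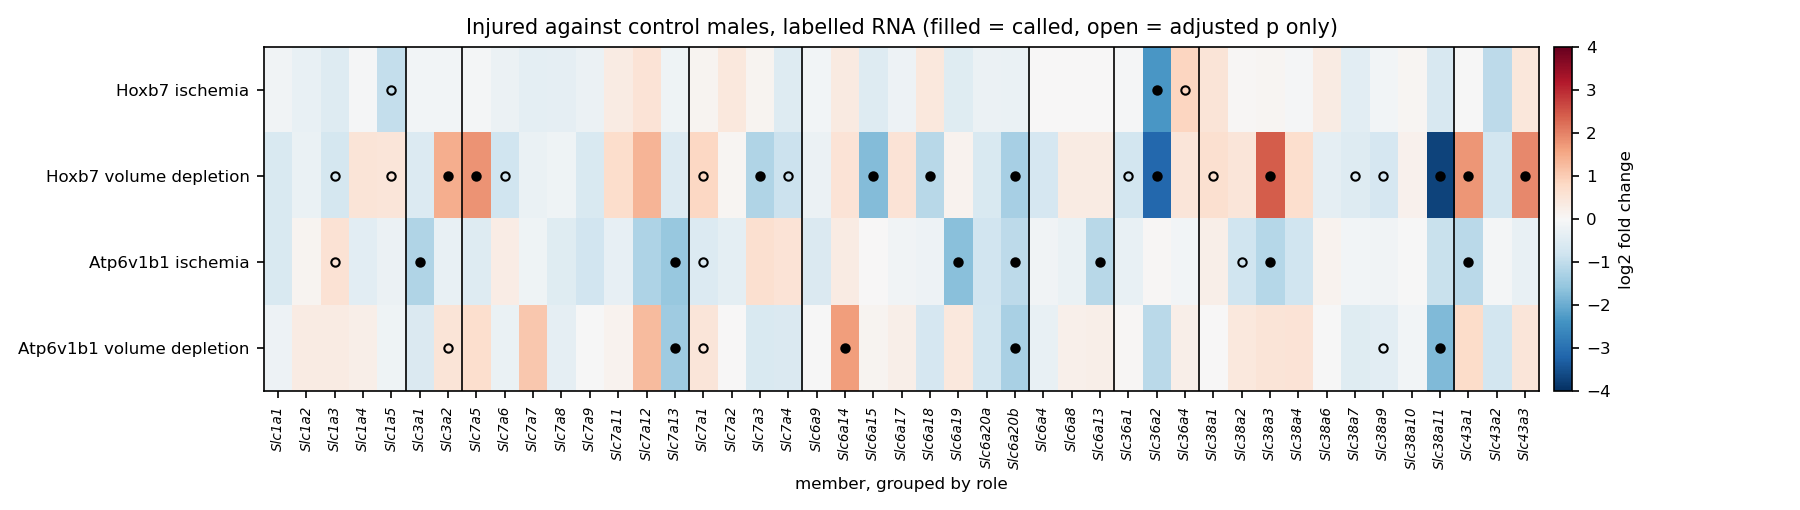
Log2 fold change of injured against control males (colour scale from -4 to 4) for the members with a mean of at least 10 counts over the 22 male libraries, in columns grouped by role and in rows by driver and state; filled circles are called members and open circles pass the adjusted p alone. The Hoxb7 volume depletion row holds both the highest (Slc38a3, 2.41) and the lowest (Slc38a11, -3.70) value.

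The 2 injuries were also set against each other without the controls, again in male pulldowns. For the Hoxb7 lineage, both sexes together and females alone gave fewer calls than males, among members and all genes, as the processing section shows. In the Hoxb7 lineage 11 members were called between volume depletion and ischemia, 7 higher and 4 lower after volume depletion, where 14.7% of all genes were called (8.15% higher and 6.55% lower). Higher were Slc38a3 (2.33), Slc6a5 (2.03), Slc7a5 (1.85), Slc43a1 (1.76), Slc3a2 (1.56), Slc1a5 (1.46) and Slc43a3 (1.45). Slc1a5 was at 111, 130 and 210 CPM after volume depletion, above every ischemic library. Lower were Slc38a11 (-3.05), Slc6a18 (-1.51), Slc7a3 (-1.29) and Slc6a20b (-1.05). Of the 16 amino acid response genes 10 were called higher after volume depletion, among them Trib3 (3.77) and Atf3 (3.80), and none lower. Of the markers, 5 of 6 for injured tubule, 2 of 4 for thick ascending limb (Umod, Ptger3), 2 of 3 for distal convoluted tubule (Slc12a3, Trpm6) and 2 of 8 for intercalated cells (Foxi1, Insrr) were called lower. Of 8 for principal cells, Avpr2 (-1.63) and Aqp4 (-1.01) were called lower and Aqp3 (1.002) higher. Called higher were 2 of 5 endothelial (Cdh5, Egfl7), 2 of 9 adipocyte (Cidec, Cfd), 1 of 10 proximal tubule (Fbp1) and 1 of 5 podocyte markers (Synpo), and of 5 macrophage markers Cd68 was higher and Adgre1 lower. The part of these markers in the differences of the carriers was not tested.

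In the Atp6v1b1 lineage 13 members were called, 11 higher and 2 lower after volume depletion, where 11.6% of all genes were called (7.16% higher and 4.39% lower). Slc38a2 was at 1910, 2550, 1670 and 1800 CPM after volume depletion and at 723, 807 and 1010 CPM after ischemia, and at 1260 to 1680 CPM in the controls. The difference was 1.23 ± 0.205. Slc7a5 was at 71.2, 85.3, 89.9 and 112 CPM against 32.2, 29.2 and 54.4 CPM (1.21 ± 0.298), Slc7a1 at 156, 222, 220 and 191 CPM against 93.6, 93.4 and 107.4 CPM (1.01 ± 0.146), and Slc38a3 differed by 1.65 ± 0.338. Slc38a2, Slc7a5, Slc7a1 and Slc38a3 did not overlap between the injuries. Slc43a1 (1.79), Slc6a13 (1.34) and Slc7a12 (2.504) were higher without overlap, Slc6a19 (2.09), Slc7a7 (1.27) and Slc6a14 (1.32) with overlap, and Slc6a5 was again at few counts. Slc7a3 (-1.27) and Slc7a4 (-1.13), both of the cationic group, were lower after volume depletion. Of 10 proximal tubule markers, 5 were called higher in this comparison, 1 was called lower (Slc22a6, -1.34) and their median was 0.95. Some of those called higher spread widely between the volume-depleted libraries, such as Slc34a1 (1065 ± 813 CPM, SD) and Slc5a12 (495.5 ± 335 CPM). Slc6a19 stood apart by number series there, as given above. Slc7a7 was at 2546 and 1089 counts in series A and at 345 and 426 counts in series B, whose libraries had smaller totals. Called lower were also 5 of 8 intercalated cell, 3 of 4 thick ascending limb, 6 of 9 adipocyte and 5 of 6 injured tubule markers, Slc12a3 (-2.02) of 3 distal convoluted tubule and Hsd11b2 (-1.74) of 8 principal cell markers. Egfl7 (1.01) of 5 endothelial markers was called higher. Of the 16 amino acid response genes 6 were called higher and none lower, namely Atf3 (3.45), Chac1 (2.66), Trib3 (2.51), Ddit4 (2.35), Ddit3 (1.84) and Sesn2 (1.63). The part of these markers in the differences of the carriers was not tested. In females alone Slc6a14 (-0.48) and Slc6a5 (-0.35) went the other way without passing.

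The difference between the lineages in their response was tested as an interaction. For ischemia it was called for 3 members, where 3.49% of all genes were called, and for volume depletion for 3, where 2.93% were called. These counts moved with the libraries entered. With both sexes they were 2 for ischemia, where 0.694% of all genes were called, and 0 for volume depletion, where 0.293% were called and 2 members passed an unadjusted p under 0.05 by edgeR, as 11.8% of all genes did. Within number series A they were 11 and 10, where 8.15% and 8.9% of all genes were called. Slc1a3, the glutamate and aspartate carrier, was called in both. It was at 17.3, 14.6, 13.9 and 15.4 CPM in Hoxb7 controls, at 12.3, 12.7, 7.48 and 10.2 CPM after ischemia and at 9.18, 10.2 and 8.83 CPM after volume depletion. In the Atp6v1b1 lineage it was at 12.5, 13.7, 12.7 and 14.1 CPM in controls, at 20.9, 24.3 and 14.2 CPM after ischemia and at 18.3, 17.4, 14.2 and 15.8 CPM after volume depletion. All injured libraries lay below the controls in the one lineage and above them in the other, and the responses differed by 1.10 ± 0.242 for ischemia (adjusted p = 0.00927) and 1.01 ± 0.245 for volume depletion (adjusted p = 0.0192). Both tests share the controls of each lineage.

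For ischemia, Slc3a1 also differed, by -1.09 ± 0.335 (adjusted p = 0.0488), and Slc36a2 by 2.39 ± 0.708 (adjusted p = 0.0407). In the same test 7 of 9 adipocyte markers were called higher in the Atp6v1b1 response, among them Ucp1 (5.53) and Adipoq (2.46), and 2 of 10 proximal tubule markers lower, Slc34a1 (-1.95) and Slc22a8 (-1.42). Also called higher were 6 of 8 principal cell and 3 of 8 intercalated cell markers. The endothelial marker Kdr (-1.88) and the amino acid response gene Chac1 (-2.27) were called lower. Their part in these differences was not tested. For volume depletion, the response of Slc38a3 was 1.91 ± 0.438 lower in the Atp6v1b1 than in the Hoxb7 lineage (adjusted p = 0.0145), and that of Slc43a3 1.43 ± 0.275 lower (adjusted p = 0.0044). After volume depletion Slc38a3 was at 331 to 388 CPM in the Hoxb7 lineage, from controls of 60.4 to 74.8 CPM. In the Atp6v1b1 lineage it was at 267, 165, 470 and 288 CPM, from controls of 176 to 270 CPM. Of these 4 libraries 3 lay below every volume-depleted Hoxb7 library and 1 above, and the difference in level was not tested. In this test 4 of 8 principal cell markers were called higher in the Atp6v1b1 response, and Slc22a6 of the proximal tubule, Cdh5 of the endothelium, Cd68 of macrophages and 4 of the 16 amino acid response genes (Asns, Chac1, Trib3 and Sesn2) lower, and their part was likewise not tested. The response of Slc3a2 was 0.97 lower in the Atp6v1b1 lineage by adjusted p only (adjusted p = 0.0229). In females alone edgeR called 0% of all genes in either test, members included, with 6 and 8 members at an unadjusted p under 0.05 against 7.2% and 21% of all genes, and 3 turned direction, those of Slc36a2 for ischemia (-0.009) and of Slc1a3 (-0.18) and Slc38a3 (0.31) for volume depletion. Without ischemic Hoxb7 replicate 6 no member was called for ischemia by edgeR, where 2.59% of all genes were called, with 16 at an unadjusted p under 0.05 (20.9% of all genes), and the count ranged from 0 to 5 as each of 15 libraries was left out in turn. The call of Slc3a1 was lost in 12 of these 15 fits (-1.32 to -0.85 over all of them), that of Slc36a2 in 10 (1.82 to 2.96) and that of Slc1a3 in 2 (0.96 to 1.35). For volume depletion the count was 2 to 5, the call of Slc1a3 was lost in 6 of 15 fits (0.95 to 1.08), and those of Slc38a3 and Slc43a3 in 0.

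Total kidney RNA of untreated mice differed between the sexes for several carriers. Of 59 members 8 (13.6%) were called, 5 higher and 3 lower in females, where 4.56% of all genes were called (2.81% higher and 1.76% lower). By adjusted p alone 28 members passed, 20 higher and 8 lower in females, where 25% of all genes passed. The largest differences were those of the light chains Slc7a13 and Slc7a12. In the 8 females Slc7a13 ranged from 0.320 to 7.69 CPM with a median of 2.67, and in the 8 males from 891 to 1360 CPM with a median of 1120. The difference of females minus males was -8.63 ± 0.387 on the log2 scale (adjusted p = 5.23e-12). Slc7a12 (chr3:14480697-14505830) ran the other way, at 231 to 444 CPM in females (median 310.0) and 4.87 to 27.2 CPM in males (median 7.50), a difference of 5.06 ± 0.283 (adjusted p = 1.35e-10). The sexes did not overlap for either gene.

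The same held in the control pulldowns, at lower levels. Slc7a13 was at 0.4514 ± 0.578 CPM in 6 female and 85.4 ± 31.1 CPM in 4 male Hoxb7 pulldowns, and at between 0.0411 and 0.647 CPM in 4 female and between 60.1 and 158 CPM in 7 male Atp6v1b1 pulldowns. Slc7a12 was at 42.8 ± 8.58 and 0.648 ± 0.218 CPM in the Hoxb7 and at 52.3 ± 24.9 and 1.324 ± 1.15 CPM in the Atp6v1b1 pulldowns of females and males. In the pulldowns of control mice of 5.5 months, a comparison added after the data were seen, the differences were -7.71 for Slc7a13 and 5.27 for Slc7a12.

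Another pair of called members was lower in females. Slc6a9, a glycine carrier, was at 21.95 ± 3.72 CPM in females and 46.61 ± 7.97 CPM in males (-1.08 ± 0.094, adjusted p = 5.91e-08), and Slc36a1, the proton-coupled carrier of lysosomes, at 44.2 ± 15.4 against 91.9 ± 8.22 CPM (-1.06 ± 0.159, adjusted p = 5.34e-05). Neither overlapped between the sexes. In the control pulldowns of 5.5 months the difference of Slc6a9 was -0.70 (adjusted p = 0.00277), below the fold threshold, and that of Slc36a1 was -0.60 (adjusted p = 0.0959), which did not pass. Of the 5 members called higher in females, 4 were low: Slc6a7, a proline carrier, was at 0.8138 ± 0.203 against 0.3505 ± 0.188 CPM, and Slc6a5, Slc6a2 and Slc7a14 were below 0.3 CPM on average in both sexes. Slc6a18 was higher in females by adjusted p, at 1515 ± 112 against 974.1 ± 103.5 CPM (0.64 ± 0.071), with no overlap, and Slc6a20b was lower (-0.55 ± 0.074). Of 6 injured tubule markers 1 was called higher in females, with sums of 1942 to 2926 CPM against 858.1 to 1270 CPM in males, and the part of these markers in the differences was not tested.

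**Figure D5:**
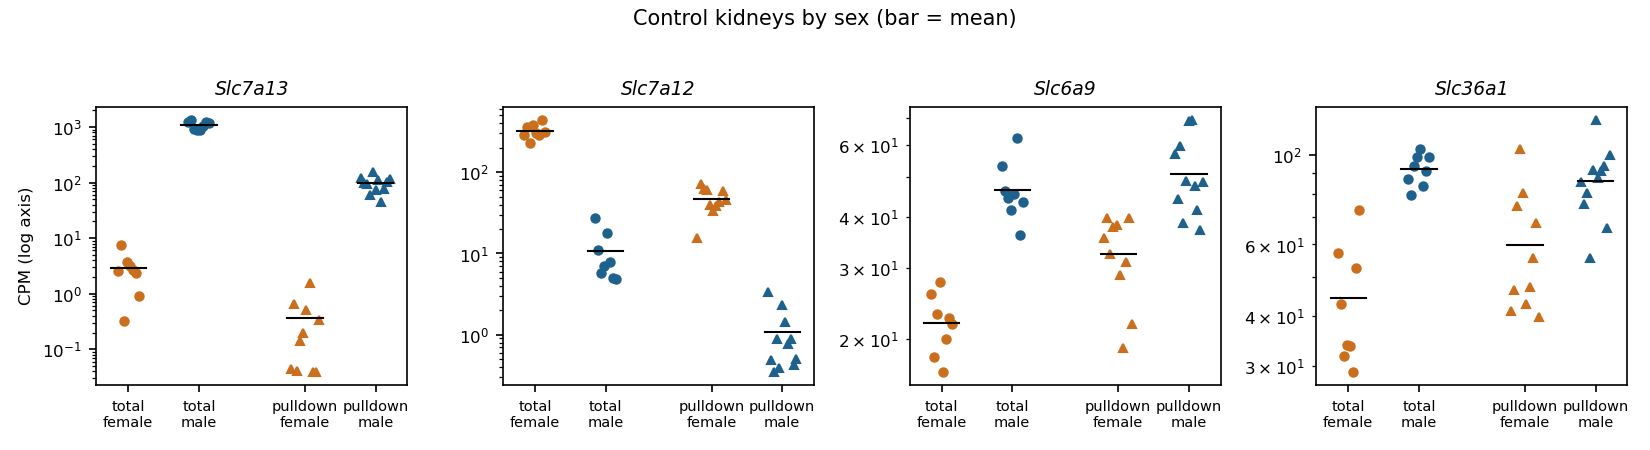
Level of 4 members in control kidneys by sex (y axis, CPM on a log scale), in total RNA of 5.5 months (circles, 8 females and 8 males) and in control pulldowns of both lineages (triangles); bars are means. Slc7a13 and Slc7a12 separate the sexes in both kinds of RNA and in opposite directions, whereas Slc6a9 and Slc36a1 overlap in the pulldowns.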

How the data were processed

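RNA was measured in 48 pulldown and 21 total kidney libraries. Per the submitters' processing notes, the authors used CASAVA 1.8.2, Trimmomatic 0.36, STAR 2.5.3a (mm10) and HTSeq 0.6.1p2, and deposited raw read counts per gene. HTSeq leaves out reads that align to several places, so near-identical genes lose reads. The limit given above for members that overlap a transcript of the opposite strand holds for other named members too. Among them are Slc6a9, Slc7a2, Slc7a7, Slc7a10 and Slc7a11. The gene annotation behind the counts is not given in the sources used here. Members and lists were chosen with earlier results of these data known.

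Counts were filtered (at least 2 over all 69 libraries, 21175 of 24411 genes) and analysed in R 4.3.3 with edgeR 4.0.16 (TMM scaling, quasi-likelihood test, Benjamini-Hochberg adjustment). Injuries were tested over 22 male pulldowns in 6 groups, pulldown against total RNA over 42 controls with sex as a covariate, and the sexes over 16 total libraries with genotype as a covariate. Called means an adjusted p under 0.05 and at least 1 on the log2 scale. That groups do not overlap describes named genes, most of them picked by their calls, and is no further test. The share of all genes without overlap is given only for volume depletion in the Hoxb7 lineage. The code was tested on simulated data. Named genes were those called after injury with a mean of at least 10 counts over the 22 males, the 6 highest and lowest folds between pools, members called between the sexes and those highest per kb. Members under this mean are given where a count of calls includes them. No fold is given where both groups averaged under 3 counts per library. Library totals limit precision at low counts. Alternatives were DESeq2 1.42.0, other scaling, filters and samples. Positions are from GENCODE M21 (GRCm38) and promoters from RefSeq (GRCm38.p6). Figures were drawn with matplotlib.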

Additional observations from a re-analysis of the deposited data

Results flagged for a closer look

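In 9 of 95 groups of 4 to 10 libraries tested, 1 library lay far from the others for a member, where chance gives about 1 in 20. Slc6a15 was at 23.1 CPM in Hoxb7 control replicate 4, with the others at 43.6 to 46.7. Slc6a18 was at 1260 CPM in Hoxb7 control replicate 5, with the others at 498 to 628. Among ischemic Hoxb7 males, Slc6a15 was at 33.6 CPM in replicate 7 (others 25.4 to 26.4) and Slc6a19 at 86.7 CPM in replicate 5 (others 153 to 163). In volume-depleted Atp6v1b1 replicate 1, Slc6a15 was at 76.3 CPM (others 15.1 to 19.3) and Slc43a3 at 42.8 CPM (others 63.1 to 65.5). In total RNA, Slc7a13 was at 7.69 CPM in female replicate 12 (others 0.32 to 3.79), Slc6a5 at 0.115 CPM in male replicate 11 (others 0 to 0.0348) and Slc7a14 at 0.0483 CPM in male replicate 10 (others 0). The values of Slc6a5 and Slc7a14 rest on 2 counts and 1 count, and the chance rate given above does not apply to groups of zeros and single reads.

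The response of the Atp6v1b1 lineage minus that of the Hoxb7 lineage differed, by a test of the interaction, for Slc1a3 (1.10), Slc3a1 (-1.09) and Slc36a2 (2.39) after ischemia and for Slc1a3 (1.01), Slc38a3 (-1.91) and Slc43a3 (-1.43) after volume depletion, on the log2 scale.

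In the Hoxb7 lineage the response of females minus that of males, a test added after the data were seen, differed after ischemia for Slc6a20b (1.77), Slc36a2 (3.12), Slc36a4 (-1.21) and Slc38a2 (-1.52). Female Slc38a2 was at 1190, 2870, 2700 and 2640 CPM in the 5.5-month controls and at 999, 931 and 600 CPM after ischemia, and male libraries overlapped between these states. The lowest of these controls, at 1190 CPM, was the only one of number series A, to which all 3 ischemic females belong, so series and state cannot be told apart here. After volume depletion it differed for Slc3a2 (-1.31), Slc6a20b (1.73), Slc7a3 (1.44), Slc36a1 (1.25), Slc36a2 (2.63), Slc38a3 (-2.20), Slc38a11 (2.89) and Slc43a3 (-1.26). In the Atp6v1b1 lineage no gene of the 21175 was called in this edgeR test, and 0 members for ischemia and 7 for volume depletion passed an unadjusted p under 0.05, as 3.19% and 8.29% of all genes did.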

How the results depend on the processing

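Among member results under alternatives other than leaving out a library or dropping the fold threshold, which cannot lose a call, 775 stayed on the same side of the threshold in the same direction, 146 no longer passed and 10 reversed. When 1 library was left out, 359 stayed and 80 no longer passed. All 10 reversals came with females only: Slc36a2 after ischemia (0.80) and Slc6a20b (0.42) and Slc7a3 (0.24) after volume depletion in the Hoxb7 lineage, Slc6a14 (-1.26) and Slc7a13 (0.95) after volume depletion in the Atp6v1b1 lineage, Slc6a5 (-0.35) and Slc6a14 (-0.48) between the injuries there, and the lineage differences of Slc36a2 for ischemia (-0.009) and Slc1a3 (-0.18) and Slc38a3 (0.31) for volume depletion. The cause of these changes was not tested.

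Counts of called members are given with the share of all genes called in the same fit in parentheses. For ischemia in the Hoxb7 lineage, where 1 member was called (2.3%), the count was 3 without a fold threshold (6.13%), 2 by DESeq2 (2.78%), 0 with both sexes (1.25%), 2 in females (2.08%), 4 with the number series as a covariate (4.24%) and 2 within series A (3.23%), and leaving out 1 library gave 1 to 2. For volume depletion there it was 21 without a fold threshold (35.5%), 6 with both sexes (4.56%) and 0 in females (0.0992%), against 12 (16.4%), with 9 to 13 when 1 library was left out. For ischemia in the Atp6v1b1 lineage, against 7 (2.82%), it was 4 with both sexes (3.9%) and 0 in females (1.15%), with 0 to 6 when 1 library was left out. For volume depletion there, against 5 (5.15%), it was 8 without a fold threshold (14.6%), 3 in females (9.89%) and 1 within series A (3.12%), with 4 to 7. Between the injuries it was 17 without a fold threshold (33.3%), 7 with both sexes (9.45%) and 2 in females (2.61%) for the Hoxb7 lineage, against 11 (14.7%), with 10 to 11, and 10 to 13 for the Atp6v1b1 lineage, against 13 (11.6%). For the lineage difference after ischemia, against 3 (3.49%), it was 6 by DESeq2 (4.72%), 0 in females (0%) and 11 within series A (8.15%), with 0 to 5. For that after volume depletion, against 3 (2.93%), it was 0 with both sexes (0.293%), 0 in females (0%), 8 with the series as a covariate (6.68%) and 10 within series A (8.9%), with 2 to 5. Against total RNA, 41 members of the Hoxb7 (66.6%) and 40 of the Atp6v1b1 pulldown (63.8%) passed without a fold threshold. Between the lineages, against 1 (4.11%), it was 5 without a fold threshold (9.93%), 5 in males (4.9%) and 2 at 5.5 months (3.77%). Between the sexes, against 8 (4.56%), it was 28 without a fold threshold (25%) and 5 in control pulldowns (1.79%).

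Samples with the same replicate number showed no common deviation (mean correlation -0.08 over 6 Hoxb7 pairs, -0.11 over 2 Atp6v1b1 pairs). Pairs of unlike number ranged from -0.438 to 0.455 in the Atp6v1b1 lineage, so these few pairs cannot exclude a pairing. The numbers were not used as pairs in the main tests. With the replicate block the counts for ischemia and volume depletion were 2 (2.19%) and 10 (11%) in the Hoxb7 lineage, 0 (0%) and 9 (10.5%) in the Atp6v1b1 lineage, and 0 (0%) and 1 (0.25%) for the lineage differences. At an unadjusted p under 0.05, the edgeR fits with the block that called 0 had 17 members for ischemia in the Atp6v1b1 lineage (15.5% of all genes) and 15 for the lineage difference (18%). Depth limits the precision for members under 10 counts.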
